A study of Rattus norvegicus with 8 samples.

Results

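This account covers 42 genes of the cell cycle in the rat oesophagus, 16 that act in or just before S phase and 26 that act in mitosis, out of 22093 genes measured. They were picked by gene symbol in the array's platform annotation, and each gene was read from its probe set of highest average signal. All 42 symbols matched, 41 with 1 probe set and 1 (Ccnb2) with 2. The study set oesophageal neoplasia against adjacent normal tissue under a riboflavin-deficient and a riboflavin-normal diet, in rats given N-nitrosomethylbenzylamine (NMBA), a nitrosamine carcinogen of the rat oesophagus. It used 4 Rattus norvegicus animals and 8 arrays, 2 per group, each animal giving an array of epithelial neoplasia and an array of adjacent normal tissue. The 4 groups were neoplasia of rats on the riboflavin-deficient diet, adjacent normal tissue of the same rats, neoplasia of rats on the riboflavin-normal diet, and adjacent normal tissue of those rats. All of them carried the NMBA treatment, by subcutaneous injection at 0.35 mg/kg, 3 times per week over 5 weeks, and all were killed at week 25. The tissue was fixed with paraformaldehyde and paraffin-embedded before RNA extraction. No untreated rat was analysed here, so "adjacent normal" means carcinogen-treated tissue beside a lesion, and strain, sex and age are not given in the sources used here.

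A cell that enters S phase loads the Mcm2 to Mcm7 helicase onto its origins with Cdc6 and Cdt1, fires it with Cdc45, and makes nucleotides with ribonucleotide reductase, thymidylate synthase and thymidine kinase. In mitosis, cyclin B with Cdk1, Plk1 and the Aurora kinases drive the spindle, which kinesins and kinetochore proteins build, a checkpoint guards, and Cdc20 and Ube2c end by marking cyclin B for destruction. In a squamous epithelium such as the oesophagus, dividing cells lie in and near the basal layer, and RNA of both gene groups is read as a mark of proliferation.

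The promoters of both groups are known to differ in their letters. E2F factors bind many S-phase promoters, and mitotic promoters often hold CCAAT boxes and a cell cycle homology region (CHR). RefSeq promoter windows of build GRCr8, running 250 bases before and 50 bases after the start, were found for 33 of the 42 genes. The windows of Ccna2, Ccne2, Cdc6, Foxm1, Aurkb, Mcm4, Rrm2, Tpx2 and Ube2c were not used here. Both strands were searched for CCAAT, for the CHR letters TTTGAA or TTCGAA, and for the E2F letters TTTCCCGC, TTTCGCGC, TTTGCCGC or TTTGGCGC. CCAAT stood in 16 of 21 mitotic windows (76.2%) and in 7 of 12 S-phase windows (58.3%), against 37.7% of all 27457 windows. CHR letters stood in 13 mitotic windows (61.9%) and in 3 S-phase windows (25%), against 19.5% of all. The E2F letters ran the other way, with 1 mitotic window (4.76%) and 7 S-phase windows (58.3%), against 2.25% of all. Both CCAAT and CHR letters were held by 12 mitotic windows (57.1%) and 2 S-phase windows (16.7%), against 7.83% of all. A match is a description of the letters and does not show binding. The following 4 windows show genes the results turn on, Mki67 and Mcm2 and the gene of smallest p in each class (Top2a and Rrm1), 5′ to 3′ on the gene's strand, with every match in capitals. Mki67 and Top2a are mitotic genes, Rrm1 and Mcm2 are S-phase genes. They were not chosen for their letters, and Rrm1 is 1 of the 2 S-phase windows with both CCAAT and CHR letters.
Mki67: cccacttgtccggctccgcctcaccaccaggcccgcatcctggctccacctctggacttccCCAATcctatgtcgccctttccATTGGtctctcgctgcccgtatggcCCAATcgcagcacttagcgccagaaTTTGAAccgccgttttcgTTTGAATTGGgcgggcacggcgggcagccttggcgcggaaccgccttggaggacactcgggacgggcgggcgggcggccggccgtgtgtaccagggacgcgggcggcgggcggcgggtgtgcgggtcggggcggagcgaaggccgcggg
Top2a: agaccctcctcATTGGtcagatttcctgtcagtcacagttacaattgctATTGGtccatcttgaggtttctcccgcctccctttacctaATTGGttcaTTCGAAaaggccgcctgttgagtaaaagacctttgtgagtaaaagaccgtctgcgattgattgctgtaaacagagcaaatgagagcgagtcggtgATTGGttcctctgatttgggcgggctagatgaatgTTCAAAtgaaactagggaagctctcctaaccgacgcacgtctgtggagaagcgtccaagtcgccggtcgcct
Rrm1: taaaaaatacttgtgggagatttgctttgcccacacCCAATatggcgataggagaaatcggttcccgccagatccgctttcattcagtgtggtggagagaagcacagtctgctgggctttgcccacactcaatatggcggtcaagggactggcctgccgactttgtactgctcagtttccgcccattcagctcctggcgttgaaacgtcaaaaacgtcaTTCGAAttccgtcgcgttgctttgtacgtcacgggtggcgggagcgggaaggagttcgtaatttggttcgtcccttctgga
Mcm2: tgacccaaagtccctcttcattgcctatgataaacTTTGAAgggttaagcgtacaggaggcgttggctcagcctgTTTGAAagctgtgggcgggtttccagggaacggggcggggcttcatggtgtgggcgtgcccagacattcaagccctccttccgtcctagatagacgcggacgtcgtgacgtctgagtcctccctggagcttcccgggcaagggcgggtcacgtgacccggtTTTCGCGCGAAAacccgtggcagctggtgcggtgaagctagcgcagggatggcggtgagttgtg
The Mki67 window (GRCr8, chr1:199952544-199952843, minus strand) held 4 CCAAT matches and 2 CHR matches, and its CHR match from -99 to -94 shares 1 base with the CCAAT match from -94 to -90. Top2a (chr10:84473044-84473343, minus strand) held 4 CCAAT and 2 CHR matches, with CHR letters from -152 to -147 and from -22 to -17. Rrm1 (chr1:166235654-166235953, plus strand) held 1 CCAAT and 1 CHR match and no E2F match. Mcm2 (chr4:122918045-122918344, minus strand) held 2 CHR matches and 2 overlapping E2F matches just before the start, from -14 to -7 and from -10 to -3.

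The signals of most of these genes were low. Signals are deposited log2 values, made by RMA (robust multi-array average), and a signal depends on the probes as well as on the RNA, so levels of different genes are not compared. Of the 42 genes, 16 had a mean above the table median of 5.11 (the median over all genes and arrays), 5 of the 16 S-phase genes and 11 of the 26 mitotic genes. With the median over all probe sets, 4.98, the count was 20, with 7 S-phase and 13 mitotic genes. Probe sets that their IDs mark as negative controls had medians of 5.10 to 5.43 per array. On all 8 arrays 9 of the 42 genes exceeded that median, 1 S-phase gene and 8 mitotic genes, and no gene exceeded the controls' 95th percentile (10.6 to 12.1) on any array. Those controls spread widely, with a 25th percentile of 4.05 to 4.31 and a 75th percentile of 6.65 to 7.07. The span between the highest and the lowest array had a median of 0.55 for mitotic genes and 0.42 for S-phase genes, against 0.62 for all genes. Of the 42 genes, 26 lay at or below the table median. The brightest, Ube2c, Mki67, Top2a and Ccnb2, had mean signals at the 83.5, 80.3, 78.4 and 78.0 percentiles of all genes.

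Several facts of the arrays touch every comparison. The area under the curve that separates positive-control from negative-control probe sets, a measure of array quality, was 0.617 and 0.600 in deficient-diet neoplasia and 0.659 and 0.598 in its adjacent normal tissue. It was 0.696 and 0.694 in normal-diet neoplasia and 0.577 and 0.757 in its adjacent normal tissue. The array of normal-diet adjacent normal tissue, replicate 2, stood apart, with 468 probe sets at the upper limit of the scale against 1479 to 1748 on the other arrays. Genes given with their value on every array can be read without this animal; where only a difference and its SE are printed, both pairs of the diet are in it. Suprabasal squamous markers had medians of 10.0 to 14.0 on the 8 arrays and skeletal muscle markers 10.6 to 14.5, so squamous epithelium and muscle were both present. In such bulk tissue, fewer dividing cells and less RNA per cell cannot be told apart.

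On the normal diet, mitotic genes tended to be higher in neoplasia than in adjacent normal tissue, and S-phase genes, most of them of low signal, differed less. The median log2 difference over both pairs was 0.22 for the 26 mitotic genes, with 25 above 0, and 0.068 for the 16 S-phase genes, with 11 above 0. The 5 S-phase genes above the table median had a median of 0.16, and the 11 at or below it had 0.053. Over all genes the median was -0.0002 and 49.9% lay above 0. With limma, 0 of the 42 genes passed at an adjusted p under 0.05, as did 0% of all genes, and the adjusted p of all 42 genes was 1. At an unadjusted p under 0.05, 7 mitotic genes and 0 S-phase genes were higher, against 2.56% of all genes. In both pairs 17 mitotic genes and 7 S-phase genes were higher in neoplasia, against 21% of all genes, and 0 mitotic genes and 3 S-phase genes were lower in both, against 17.5%. The number of arrays limits the precision of each of these values.

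**Figure D1:**
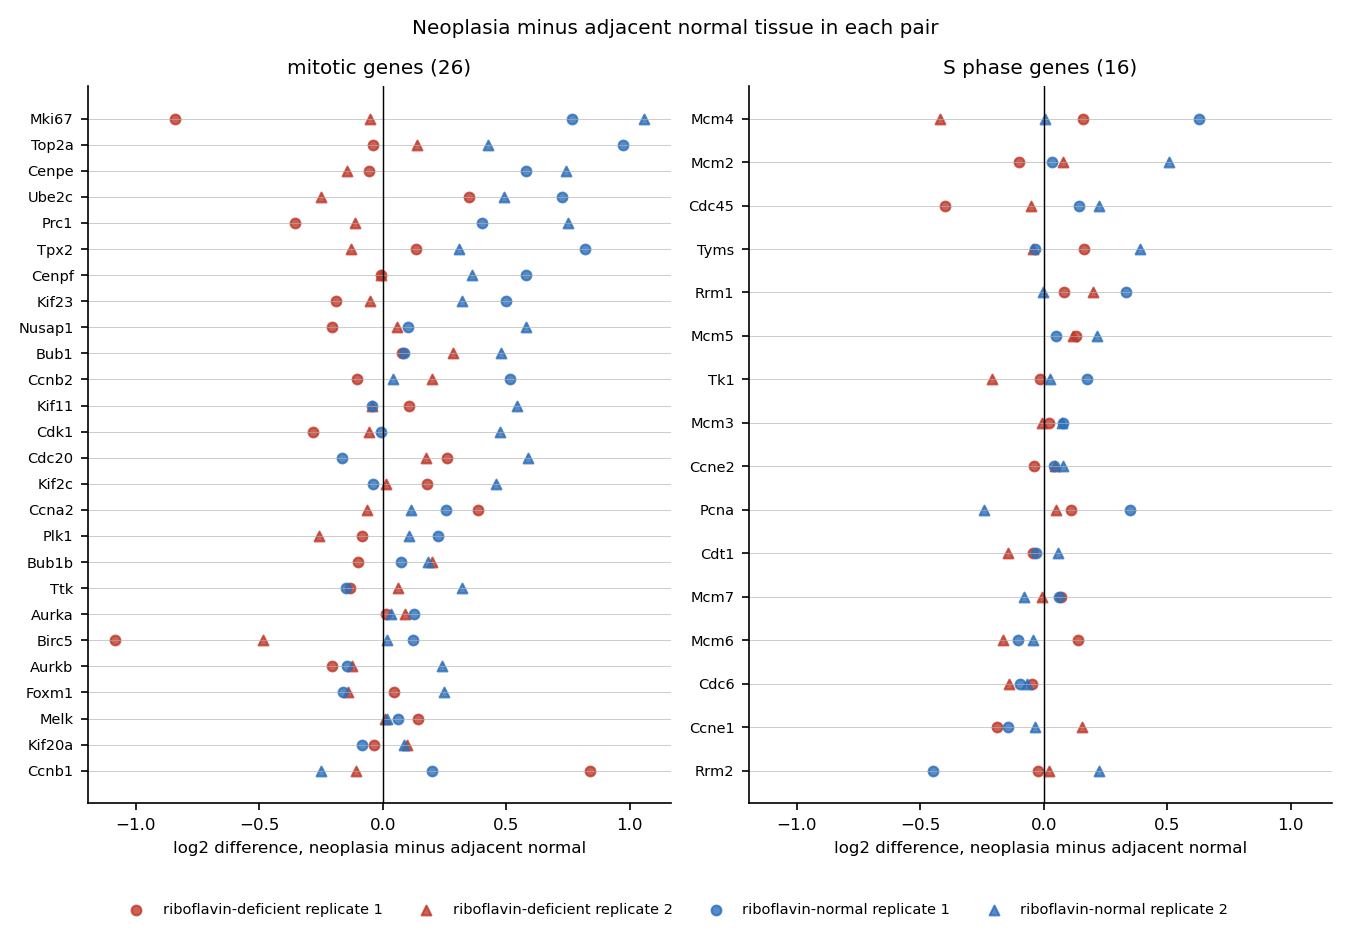
Log2 difference, neoplasia minus adjacent normal tissue, of every gene (rows) in each pair (points; red for the riboflavin-deficient diet, blue for the riboflavin-normal diet, circle for replicate 1 and triangle for replicate 2), with genes ordered by their mean in the normal-diet pairs. In both normal-diet pairs 17 of 26 mitotic genes lie above 0, against 5 in both deficient-diet pairs.

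Both chromosome structure genes were higher in neoplasia in both normal-diet pairs. Mki67, which coats mitotic chromosomes and marks cycling cells, had a log2 signal of 5.74 and 5.83 in deficient-diet neoplasia against 6.58 and 5.89 in its adjacent normal tissue, and of 6.48 and 6.99 in normal-diet neoplasia against 5.71 and 5.94 in its adjacent normal tissue. Both normal-diet neoplasia arrays lay above both arrays of normal-diet adjacent tissue and above both of deficient-diet neoplasia, while 1 array of deficient-diet adjacent tissue reached the same range. The normal-diet difference of 0.91 (SE 0.25, a 1.88-fold higher signal) was 0.77 and 1.06 in the 2 pairs. Top2a, the topoisomerase that untangles sister chromatids, had 5.82 and 5.85 in deficient-diet neoplasia against 5.86 and 5.71 in its adjacent tissue, and 6.94 and 6.32 in normal-diet neoplasia against 5.96 and 5.90 in its adjacent tissue. For Top2a the normal-diet neoplasia arrays exceeded all 6 others, whose range was narrow. Its normal-diet difference was 0.70 (SE 0.20), made of 0.97 and 0.43.

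Kinesins and spindle genes lay on the same side. All 9 had a normal-diet difference above 0, from 0.0013 to 0.66 with a median of 0.41, and 6 were higher in both pairs. Cenpe, a kinesin that carries chromosomes to the metaphase plate, had 4.92 and 4.80 in deficient-diet neoplasia against 4.98 and 4.94 in its adjacent tissue, and 5.32 and 5.43 in normal-diet neoplasia against 4.74 and 4.69 in its adjacent tissue. Its normal-diet neoplasia arrays exceeded all others, and the difference was 0.66 (SE 0.16). Prc1, which bundles microtubules of the spindle midzone, had 5.21 and 4.86 in deficient-diet neoplasia against 5.56 and 4.97 in its adjacent tissue, and 5.45 and 5.75 in normal-diet neoplasia against 5.05 and 5.00 in its adjacent tissue. Its normal-diet tissues did not overlap (0.58, SE 0.18), although a deficient-diet adjacent array lay between the 2 normal-diet neoplasia arrays. Kif23, a kinesin of cytokinesis, had 5.48 and 5.46 in deficient-diet neoplasia against 5.67 and 5.51 in its adjacent tissue, and 6.02 and 5.59 in normal-diet neoplasia against 5.52 and 5.27 in its adjacent tissue. The normal-diet tissues of Kif23 did not overlap either (0.41, SE 0.16). The kinetochore gene Cenpf (0.47, SE 0.16) and the spindle assembly factor Tpx2 (0.56, SE 0.20) were likewise higher in both normal-diet pairs, whereas the cytokinesis kinesin Kif20a stood at 0.0013 (SE 0.16).

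Genes of anaphase and mitotic exit, cyclins, kinases and checkpoint genes gave smaller values, with an exception. Ube2c, the ubiquitin-conjugating enzyme of the anaphase-promoting complex, had 6.52 and 6.11 in deficient-diet neoplasia against 6.17 and 6.36 in its adjacent tissue, and 6.74 and 6.62 in normal-diet neoplasia against 6.01 and 6.14 in its adjacent tissue. Its normal-diet neoplasia arrays exceeded all others (0.61, SE 0.21). Of the 10 cyclins, kinases and regulators, 9 had a normal-diet difference above 0, but their median was only 0.075 and their range -0.025 (Ccnb1) to 0.28 (Ccnb2). Ccnb2, a cyclin B that activates Cdk1, had 6.06 and 6.04 in deficient-diet neoplasia against 6.17 and 5.84 in its adjacent tissue, and 6.30 and 6.03 in normal-diet neoplasia against 5.79 and 5.99 in its adjacent tissue, so its normal-diet tissues were narrowly apart and its deficient-diet tissues overlapped. The other probe set of Ccnb2, of lower mean, had 4.80 and 4.19 in normal-diet neoplasia against 4.43 and 4.37 in adjacent tissue. There the normal-diet tissues overlapped. The 3 checkpoint genes Bub1, Bub1b and Ttk had normal-diet differences of 0.28, 0.13 and 0.088.

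On the normal diet, bright and dim genes behaved differently in the 2 pairs, and this touches the mitotic genes. Among all genes at or below the table median, 23.3% were higher in neoplasia in normal-diet replicate 1 and 72% in replicate 2; above the table median the shares were 62.2% and 49.2%. The 15 mitotic genes at or below the table median followed the first of these contrasts, with 7 higher in replicate 1 and 15 in replicate 2, so 7 were higher in both. The 11 mitotic genes above the table median were higher in 11 and in 10 of 11 cases. Their medians were 0.50 and 0.32, and 10 of 11 were higher in both pairs, against 27.1% of all genes above the table median. Of the S-phase genes, 2 of 5 above the table median and 5 of 11 at or below it were higher in both pairs. Among dim genes the 2 classes were thus alike in this count. Without normal-diet replicate 2, the animal whose adjacent array stood apart, the median of all 26 mitotic genes was 0.12 and 18 lay above 0; without normal-diet replicate 1 it was 0.32 with 25 above 0. The median of all genes was -0.056 and 0.075 in those 2 fits.

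**Figure D2:**
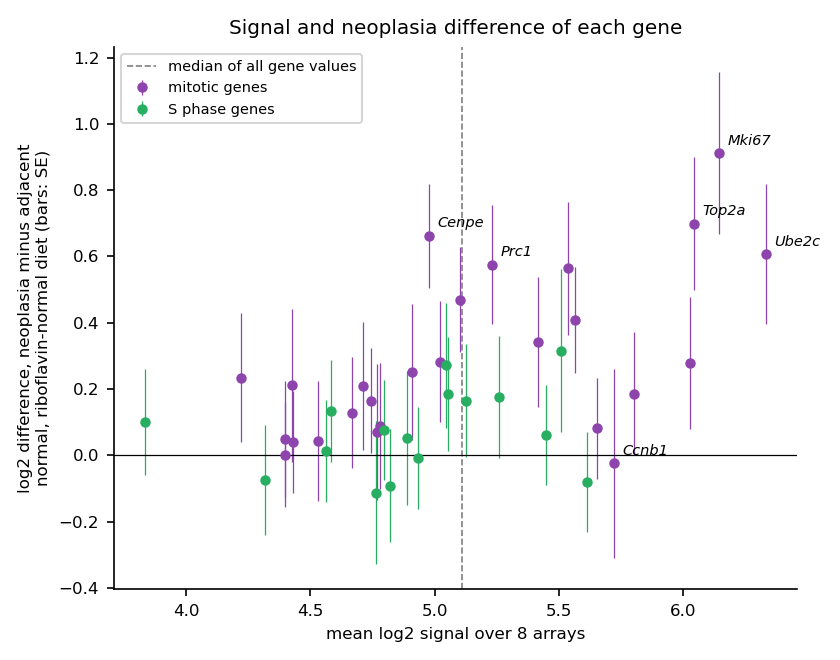
Normal-diet log2 difference, neoplasia minus adjacent normal tissue (vertical axis, bars give the SE), against the mean log2 signal over 8 arrays (horizontal axis) of the 26 mitotic and 16 S-phase genes. The dashed line is the table median of 5.11; of the 11 mitotic genes to its right, 10 lie above 0, with a median of 0.41.

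On the deficient diet, neoplasia and adjacent normal tissue differed little in either group of genes. The median log2 difference was 0.017 for mitotic genes, with 14 of 26 above 0, and -0.005 for S-phase genes, with 8 of 16 above 0. Over all genes it was -0.0037 with 49.1% above 0. After quantile normalization the mitotic median was -0.0083, and without deficient-diet replicate 1 or 2 it was -0.049 or -0.038, so its sign is not settled. In both pairs 5 mitotic genes were higher and 9 lower, against 24.2% and 24.6% of all genes, and 3 S-phase genes were higher and 4 lower. With limma 0 of the 42 genes passed, as did 0% of all genes, and 1 mitotic gene was lower at an unadjusted p under 0.05, against 1.03% of all genes.

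That gene was Birc5 (survivin), which anchors Aurora B at the centromere and blocks cell death. Birc5 had 4.46 and 4.70 in deficient-diet neoplasia against 5.54 and 5.18 in its adjacent tissue, and 4.72 and 4.48 in normal-diet neoplasia against 4.60 and 4.47 in its adjacent tissue. Both deficient-diet adjacent arrays lay above the 6 others, which spanned 4.46 to 4.72. The mean signal of Birc5 was low, at the 34.2 percentile of all genes, and it exceeded the negative controls' median on 1 of 8 arrays. The deficient-diet difference was -0.78 (SE 0.21, limma's unadjusted p = 0.0141), a 1.72-fold lower signal in neoplasia, and its adjusted p was 1. Mki67 stood at -0.45 (SE 0.25), but its 2 pairs were unequal, at -0.84 and -0.053. Ccnb1, the other cyclin B, had the highest deficient-diet difference of the 42 genes, 0.36 (SE 0.28), from pairs of 0.84 and -0.11 that disagreed in sign.

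**Figure D3:**
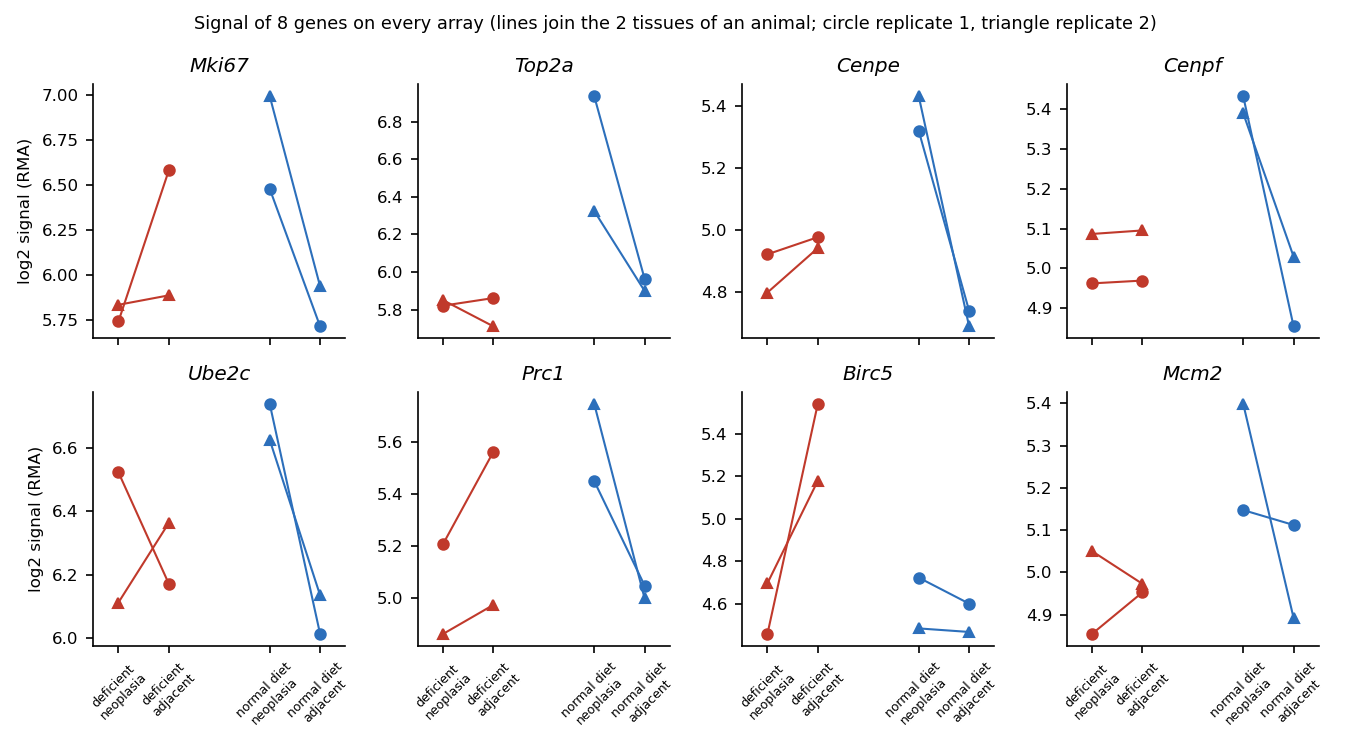
Log2 signal (vertical axis, scaled for each gene) of Mki67, Top2a, Cenpe, Cenpf, Ube2c, Prc1, Birc5 and the helicase gene Mcm2 on all 8 arrays, with a line joining both tissues of an animal, deficient diet in red and normal diet in blue. Top2a, Cenpe, Cenpf, Ube2c and, narrowly, Mcm2 were highest on the 2 normal-diet neoplasia arrays, whereas Birc5 was highest on the 2 deficient-diet adjacent arrays at 5.54 and 5.18.

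Averaged over both diets, mitotic genes were slightly higher in neoplasia and S-phase genes were close to 0. The median log2 difference was 0.15 for mitotic genes (22 of 26 above 0) and 0.022 for S-phase genes (9 of 16 above 0), against 0.0015 and 50.5% above 0 for all genes. Without normal-diet replicate 2 the mitotic median was 0.077, with 19 above 0. With limma 0 of the 42 genes passed, as did 0% of all genes. At an unadjusted p under 0.05, 1 of the 42 was higher, Top2a at 0.37 (SE 0.14), against 1.23% of all genes. A difference over 4 pairs for a single gene cannot reach an exact p below 0.125, and limma was therefore the only test of single genes. Of the 42 genes, 4 were higher in all 4 pairs (Aurka, Bub1, Melk and Mcm5), against 4.1% of all genes, and 1 was lower in all 4 (Cdc6), against 3.79%.

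The genes with the same sign in every pair had small differences. Bub1, a kinase of the spindle checkpoint, had 4.99 and 5.18 in deficient-diet neoplasia against 4.92 and 4.90 in its adjacent tissue, and 5.12 and 5.27 in normal-diet neoplasia against 5.03 and 4.79 in its adjacent tissue, a mean difference of 0.23 (SE 0.13). Aurka, the kinase that matures the spindle poles, had 5.58 and 5.71 in deficient-diet neoplasia against 5.57 and 5.62 in its adjacent tissue, and 5.82 and 5.64 in normal-diet neoplasia against 5.69 and 5.61 in its adjacent tissue, a mean difference of 0.067 (SE 0.11). Melk, a kinase of dividing and stem-like cells, had 4.51 and 4.54 in deficient-diet neoplasia against 4.37 and 4.53 in its adjacent tissue, and 4.47 and 4.32 in normal-diet neoplasia against 4.41 and 4.30 in its adjacent tissue, a mean difference of 0.058 (SE 0.11). For Aurka and Melk the difference was below its SE, and all 3 genes overlapped between tissues when the pairing was ignored.

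S-phase genes were taken by role. The 8 origin licensing genes had medians of 0.044 on the normal diet and -0.013 on the deficient diet. The 4 nucleotide supply genes had 0.13 and 0.030, the 2 replication fork genes 0.12 and -0.073, and the 2 G1/S cyclins -0.015 and -0.0075, in the same order of diets. On the normal diet the nucleotide supply and fork medians were thus above that of the mitotic cyclins and kinases (0.075) and near that of the spindle checkpoint genes (0.13). Mcm5, a helicase subunit, had 4.67 and 4.64 in deficient-diet neoplasia against 4.54 and 4.52 in its adjacent tissue, and 4.63 and 4.65 in normal-diet neoplasia against 4.58 and 4.44 in its adjacent tissue. All 4 neoplasia arrays lay above all 4 adjacent arrays, but the mean difference was only 0.13 (SE 0.11). The share of all genes separated in this way was not counted. Mcm5 was also dim, at the 24.8 percentile of all genes, and exceeded the negative controls' median on 0 of 8 arrays. Mcm2, another subunit, had 4.85 and 5.05 in deficient-diet neoplasia against 4.95 and 4.97 in its adjacent tissue, and 5.15 and 5.40 in normal-diet neoplasia against 5.11 and 4.89 in its adjacent tissue, so only its normal-diet tissues were apart (0.27, SE 0.19). The normal-diet neoplasia arrays of Mcm2 exceeded all others, as for Top2a, Cenpe and Ube2c, though narrowly (5.15 against 5.11). Cdc6, which loads the helicase, had 5.53 and 5.70 in deficient-diet neoplasia against 5.58 and 5.84 in its adjacent tissue, and 5.66 and 5.38 in normal-diet neoplasia against 5.75 and 5.45 in its adjacent tissue; it was lower in each pair, with a mean difference of -0.087 (SE 0.11).

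Genes of the other S-phase roles were mixed in sign. Cdc45, which activates the helicase, had 4.97 and 4.98 in deficient-diet neoplasia against 5.37 and 5.03 in its adjacent tissue, and 5.12 and 5.11 in normal-diet neoplasia against 4.98 and 4.88 in its adjacent tissue. Its differences had opposite signs in the 2 diets, -0.23 on the deficient diet and 0.19 on the normal diet (SE 0.17 each). Pcna, the sliding clamp of the polymerase, had 4.96 and 4.67 in deficient-diet neoplasia against 4.85 and 4.62 in its adjacent tissue, and 5.23 and 4.83 in normal-diet neoplasia against 4.89 and 5.07 in its adjacent tissue, and its tissues overlapped in both diets. Rrm1, the large subunit of ribonucleotide reductase, had 5.03 and 5.18 in deficient-diet neoplasia against 4.95 and 4.98 in its adjacent tissue, and 5.36 and 5.24 in normal-diet neoplasia against 5.02 and 5.25 in its adjacent tissue. Only the deficient-diet tissues of Rrm1 were apart, with a difference of 0.14 (SE 0.17). Tyms, thymidylate synthase, had 5.41 and 5.23 in deficient-diet neoplasia against 5.25 and 5.28 in its adjacent tissue, and 5.34 and 5.29 in normal-diet neoplasia against 5.37 and 4.90 in its adjacent tissue; both diets overlapped. The G1/S cyclins Ccne1 and Ccne2, partners of Cdk2, had mean differences of -0.055 (SE 0.12) and 0.032 (SE 0.11). Ccne1 and Cdc45 turned to 0.031 and 0.066 in the mean over diets when deficient-diet replicate 1 was left out, and Pcna, at 0.067 with all animals, turned to -0.081 without normal-diet replicate 1.

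The neoplasia difference of mitotic genes tended to be smaller on the deficient diet than on the normal diet. The difference between diets, deficient minus normal, had a median of -0.23 for mitotic genes, with 22 of 26 below 0, and of -0.041 for S-phase genes, with 11 of 16 below 0, against 0.0023 and 49.6% below 0 for all genes. Bright genes as a whole leaned the same way. Among genes whose mean lies in the upper 50 percent, 6561 of 11046 lay below 0, with a median of -0.078. Of the 11 mitotic genes above the table median, 10 lay below 0, with a median of -0.53. With limma's interaction term 0 of the 42 genes passed, as did 0% of all genes, and the adjusted p of all 42 was 1. At an unadjusted p under 0.05, 4 mitotic genes and 0 S-phase genes were below 0, against 2.43% of all genes. These were Mki67 (-1.36, SE 0.35), Birc5 (-0.85, SE 0.29), Prc1 (-0.81, SE 0.25) and Cenpe (-0.76, SE 0.22). The pairs of both diets did not overlap in 12 mitotic genes and 4 S-phase genes, all lower on the deficient diet, against 15.4% of all genes lower and 12.9% higher. Higher in both normal-diet pairs and lower in both deficient-diet pairs were 9 of the 42 genes, Mki67, Plk1, Birc5, Cenpe, Cenpf, Kif23, Prc1, Cdc45 and Tk1, against 6.33% of all genes, and the reverse held for 0 of the 42, against 4.6%. Without normal-diet replicate 2 the mitotic median was -0.13, and 9 mitotic genes lay above 0 in place of 4.

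**Figure D4:**
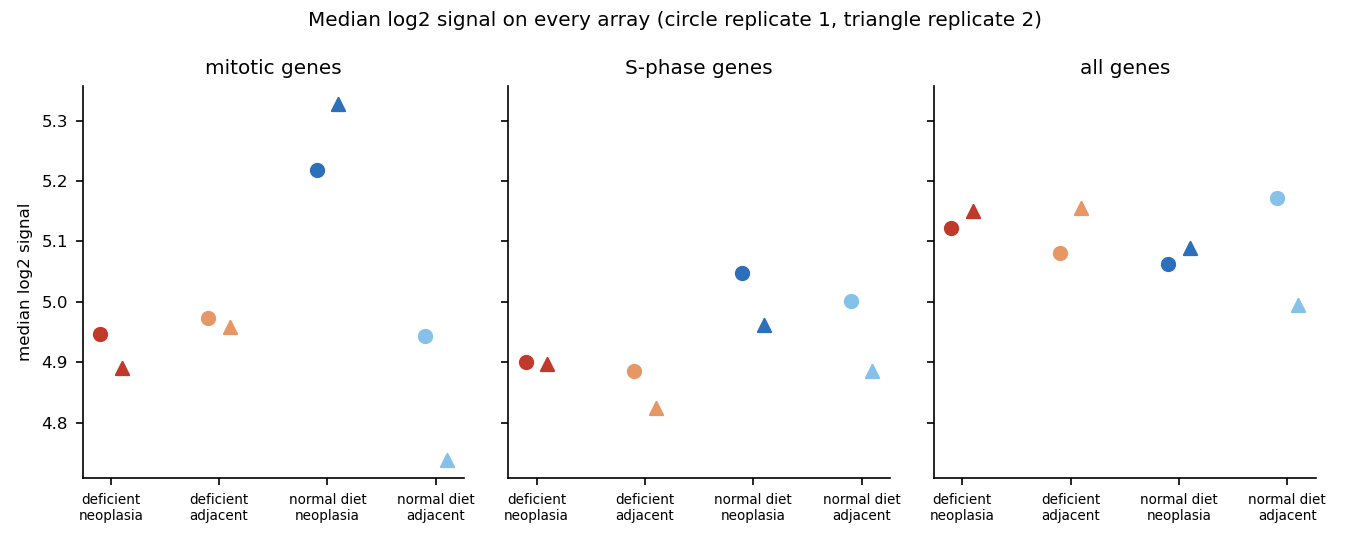
Median log2 signal (vertical axis) of the 26 mitotic genes, the 16 S-phase genes and all 22093 genes on every array, by diet and tissue (horizontal axis; circle replicate 1, triangle replicate 2). The mitotic medians of normal-diet neoplasia, 5.22 and 5.33, lie above those of the 6 other arrays, 4.74 to 4.97.

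Within neoplasia, mitotic genes tended to be lower on the deficient diet than on the normal diet. The mitotic median on the arrays was 4.95 and 4.89 in deficient-diet neoplasia and 5.22 and 5.33 in normal-diet neoplasia. The median log2 difference, deficient minus normal, was -0.15 for mitotic genes, with 23 of 26 below 0, and -0.060 for S-phase genes, with 10 of 16 below 0, against 0.024 and 45.9% below 0 for all genes. With limma 0 of the 42 genes passed, as did 0% of all genes, and the lowest adjusted p among the 42 was 0.851. At an unadjusted p under 0.05, 5 mitotic genes were lower, against 3.31% of all genes. Here 2 arrays against 2 cannot go below an exact p of 0.333, so only the limma fit was used. Diet and animal cannot be told apart in this comparison.

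This comparison shares its normal-diet neoplasia arrays with the normal-diet tissue comparison above, so the values of both are not independent. Mki67 was -0.95 (SE 0.28, a 1.93-fold lower signal on the deficient diet), Top2a -0.80 (SE 0.21), Cenpe -0.52 (SE 0.12), Nusap1 -0.52 (SE 0.18) and Cenpf -0.39 (SE 0.13). Nusap1, which binds spindle microtubules near chromatin, had 5.15 and 5.30 in deficient-diet neoplasia against 5.52 and 5.96 in normal-diet neoplasia, and 5.36 and 5.24 in deficient-diet adjacent tissue against 5.42 and 5.38 in normal-diet adjacent tissue. The diets did not overlap in either tissue for Nusap1. In all, 14 mitotic genes and 6 S-phase genes were lower without overlap, against 23.2% of all genes, and 1 mitotic gene (Melk) was higher without overlap, against 26%. Bright genes leaned the same way as a whole: above the table median 38.8% of all genes were lower without overlap and the median was -0.12, against 7 of 11 mitotic genes and a median of -0.36. At or below the table median 7.77% of all genes were lower without overlap, with a median of 0.11, against 7 of 15 mitotic genes and a median of -0.10. Of the 5 S-phase genes above the table median, 1 was lower without overlap, and their median was -0.11. The rest of the 6 S-phase genes lower without overlap were among the 11 S-phase genes at or below it, so this excess over all dim genes was not particular to mitotic genes. After quantile normalization the medians were -0.22 for mitotic and -0.13 for S-phase genes, and 1 S-phase gene lay above 0 in place of 6.

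Within adjacent normal tissue the diets differed less. The median log2 difference, deficient minus normal, was 0.089 for mitotic genes (18 of 26 above 0) and -0.017 for S-phase genes (8 of 16 above 0), against 0.020 and 54.2% above 0 for all genes. With limma 0 of the 42 genes passed, as did 0% of all genes. At an unadjusted p under 0.05, 1 of the 42 was higher, Birc5 at 0.83 (SE 0.18), a 1.77-fold higher signal on the deficient diet, against 1.32% of all genes. Without overlap 3 mitotic and 3 S-phase genes were higher, against 11.8% of all genes, and 2 mitotic and 4 S-phase genes were lower, against 8.78%. Tk1, thymidine kinase of the salvage pathway, had 3.87 and 3.81 in deficient-diet neoplasia against 3.89 and 3.76 in normal-diet neoplasia, and 3.88 and 4.02 in deficient-diet adjacent tissue against 3.71 and 3.74 in normal-diet adjacent tissue. Its diets were apart in adjacent tissue (0.23, SE 0.13) and not in neoplasia. Without normal-diet replicate 2 the mitotic median was -0.0033, with 13 of 26 above 0.

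**Figure D5:**
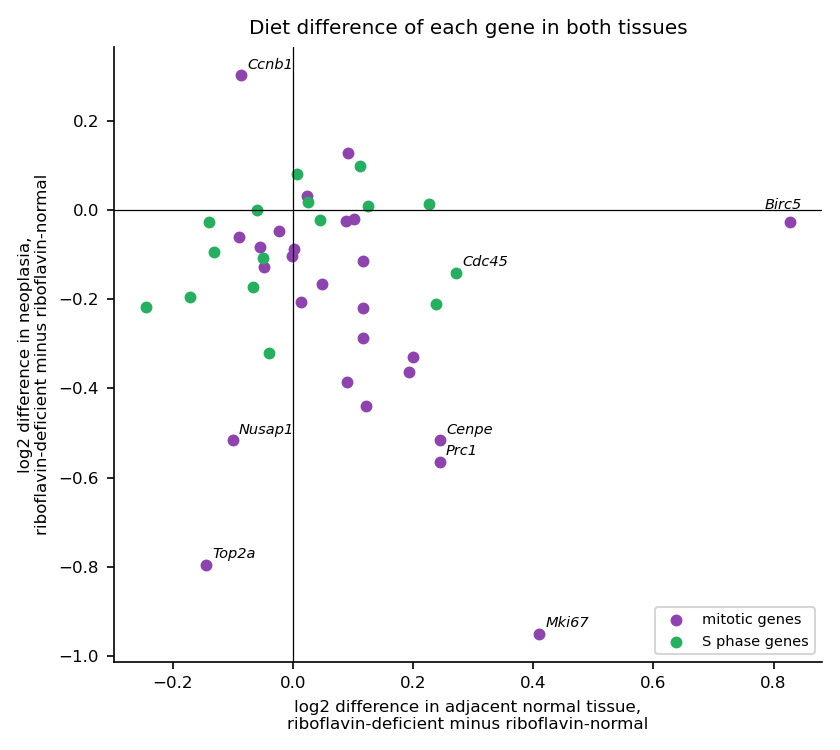
Log2 difference between diets, deficient minus normal, in neoplasia (vertical axis) and in adjacent normal tissue (horizontal axis) for the 26 mitotic and 16 S-phase genes. Mki67 lies at -0.95 in neoplasia and 0.41 in adjacent tissue, Top2a at -0.80 and -0.15, and Birc5 at -0.027 and 0.83.

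Other genes of the cycle were taken from lists by role. Of 48 further mitotic genes 47 were measured, and 41 had a normal-diet difference above 0 (median 0.15), against 49.9% of all genes, and 27 were higher in both pairs, against 21%. On the deficient diet 23 of the 47 lay above 0 (median -0.0011), near the 49.1% of all genes. Anln, an actin-binding protein of the cleavage furrow, stood at 0.36 (SE 0.15) on the normal diet, and Incenp, a chromosomal passenger protein, at 0.40 (SE 0.16). Depdc1, a protein of mitotic progression, stood at 0.43 (SE 0.16) on the deficient diet and 0.074 on the normal diet. Of 35 further S-phase genes 33 were measured, and 22 lay above 0 on the normal diet (median 0.060) and 17 on the deficient diet (median 0.0020), the second near the share of all genes. Dscc1, a loader of the sliding clamp, and Ticrr, which helps fire origins, were higher in all 4 pairs, by means of 0.23 (SE 0.11) and 0.19 (SE 0.12), while Chaf1a, a histone chaperone, was at 0.21 (SE 0.12). Of all genes 4.1% were higher in all 4 pairs, and these genes were picked from their list by smallest p of the mean effect. At an adjusted p under 0.05, 0 genes of any list passed in any comparison.

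The drivers and brakes of the cycle were mixed. Of 12 G1 cyclins, CDKs and E2F genes, 9 lay above 0 on the normal diet (median 0.10) and 5 on the deficient diet (median -0.054), against 49.9% and 49.1% of all genes. Ccnd1 (cyclin D1), which starts G1 with Cdk4 and Cdk6, was 0.53 higher in normal-diet neoplasia than beside it (SE 0.19) and stood at -0.15 on the deficient diet; within neoplasia it was -0.81 between diets (SE 0.23). Ccnd2 stood at 0.25 (SE 0.14) and Cdk2 at -0.16 (SE 0.11) in the mean over diets. Of 20 brakes 19 were measured, and 13 lay above 0 on the normal diet (median 0.078) and 3 on the deficient diet (median -0.045), against the same shares of all genes. Cdkn1a (p21), an inhibitor of cyclin-dependent kinases, stood at 0.68 on the normal diet (SE 0.18) and -0.25 on the deficient diet, from pairs of 0.74 and 0.62 and of -0.44 and -0.052. Its difference between diets was -0.93 (SE 0.25). Lin54 and E2f4, listed here among the brakes, were higher in all 4 pairs, by means of 0.22 (SE 0.11) and 0.25 (SE 0.14), against 4.1% of all genes. They were picked from their list by smallest p of the same mean effect.

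Array quality and markers of cell types moved alongside some of these differences. Control separation, neoplasia minus adjacent tissue, was -0.042 and 0.002 in the deficient-diet pairs and 0.119 and -0.063 in the normal-diet pairs. The mitotic pair medians were -0.038 and -0.049 on the deficient diet and 0.12 and 0.32 on the normal diet. The part of separation in these tissue differences was not tested. Within neoplasia, separation was lower on the deficient diet (0.617 and 0.600) than on the normal diet (0.696 and 0.694), as were the mitotic medians, and its part in that result was not tested. Basal keratinocyte markers, which mark the layer that divides, had pair medians of -0.19 and -0.075 on the deficient diet and 1.98 and -0.057 on the normal diet, with 2, 2, 9 and 4 of 9 higher. Suprabasal squamous markers had -1.17, 0.14, 2.62 and -0.034 in the same order. Basal medians in neoplasia were 7.27 and 7.18 on the deficient diet and 8.43 and 8.20 on the normal diet, and the summed linear signal of the 9 markers ran from 1993 to 3921 in deficient-diet neoplasia and from 8506 to 72249 in normal-diet neoplasia. Basal medians in adjacent tissue were 8.48 and 7.26 on the deficient diet and 6.76 and 8.52 on the normal diet. Suprabasal medians in neoplasia were 10.7 and 11.7 on the deficient diet and 13.8 and 14.0 on the normal diet. Muscle and fibroblast sums were also higher in normal-diet neoplasia, for fibroblasts 7110 to 8484 against 1116 to 1939. Macrophage, neutrophil and lymphocyte sums overlapped between diets in neoplasia, but most of these markers were of low signal. On the neoplasia arrays 3 to 4 of 9 macrophage, 2 to 3 of 8 neutrophil and 0 to 3 of 9 lymphocyte markers exceeded the negative controls' median. In the second normal-diet pair, mitotic genes were higher while basal markers were not, and muscle and fibroblast markers were lower in neoplasia, at -2.06 for skeletal muscle, -2.20 for smooth muscle and -1.89 for fibroblasts. Macrophage markers had pair medians of 0.098 and -0.030 on the deficient diet and -0.013 and -0.34 on the normal diet, and neutrophil markers 0.047 and 0.12, and -0.20 and 0.30. Lymphocyte markers, another source of dividing cells, had a summed linear signal of 281 to 308 in deficient-diet neoplasia, 269 to 283 in its adjacent tissue, 283 to 285 in normal-diet neoplasia and 277 to 317 in its adjacent tissue, with pair medians of 0.28 and 0.0056 on the deficient diet and -0.092 and 0.11 on the normal diet. Their part, and that of the other markers, in the mitotic differences was not tested.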

How the data were processed

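RNA of 8 rat oesophageal samples was hybridised to Affymetrix expression arrays. The deposited log2 values were made by the authors with Affymetrix Expression Console and RMA, per the submitters' processing notes; versions and genome build are not given in the sources used here. Of 70580 probe sets, 23446 carried 1 gene symbol, 505 several, and 46629 were unnamed here or controls. Symbols were updated through Entrez IDs (22077 probe sets matched, 1 symbol changed), and the probe set with the highest mean was kept for the 1182 genes with several, leaving 22093 genes. No low signals were filtered out, so all 42 genes were tested.

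Groups and animals came from the titles and descriptions. Tissue comparisons used limma 3.58.1 in R 4.3.3 with an animal factor and, within each diet, a neoplasia coefficient (2 residual degrees of freedom). Diet comparisons used 4 group means (4 residual degrees of freedom), since animals are nested in diet. A gene passed where its Benjamini-Hochberg adjusted p over all genes lay under 0.05, and p-values and SEs are limma's throughout. Both tissues of an animal shared its code in the descriptions, and the differences between the 2 animals of a diet correlated between tissues at r = 0.19 (normal diet) and 0.16 (deficient diet) across genes. The fit was also run on simulated data with known neoplasia changes, the same in both diets. The check was only that median estimates of the mean over diets lay near those changes. It did not test the calls, the single diets or the difference between diets. Nothing says how the pieces of tissue of an animal were taken, so p-values measure only the spread between these samples.

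The 42 genes, their classes and the lists were chosen with earlier results of these data known, so class medians and counts are descriptions set beside all genes. Named genes were, in each role, the gene of highest mean and that of smallest unadjusted p of the mean effect, the panel Mki67, Top2a, Pcna and Mcm2, genes of one sign in all 4 pairs, up to 4 genes of smallest p in each other comparison, and up to 3 genes of each pathway list with the smallest unadjusted p of the mean effect. Cenpf, Tpx2, Kif20a, Ccnb1, Bub1b, Ttk and Plk1 were named after their values were seen. Promoter windows are from RefSeq (GRCr8), with the first window of a gene listed. Alternatives were the fit with no animal block, a block by title number, quantile or cyclic loess normalization, a filter to genes whose mean lies in the upper 50 percent, the mean of all probe sets, an intensity trend, the median over all probe sets, and leaving out each animal.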

Additional observations from a re-analysis of the deposited data

Results flagged for a closer look

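For 9 of the 42 genes both normal-diet pairs were higher in neoplasia and both deficient-diet pairs were lower. This rule uses the sign alone, and some of the pair differences were close to 0. Cenpf stood at -0.0071 and -0.0089 in the deficient-diet pairs, and Birc5 at 0.017 in normal-diet replicate 2. Tk1 stood at -0.017 in deficient-diet replicate 1 and 0.024 in normal-diet replicate 2. The interaction values of the 9 genes, deficient minus normal on the log2 scale, were -1.36 for Mki67, -0.85 for Birc5, -0.81 for Prc1, -0.76 for Cenpe, -0.53 for Kif23, -0.48 for Cenpf, -0.34 for Plk1, -0.41 for Cdc45 and -0.21 for Tk1. The difference was tested with limma's interaction term, and 0 of the 9 passed, each with an adjusted p of 1. The pattern was held by 6.33% of all genes. The median over the 26 mitotic genes was -0.23, and by itself it was not tested. The 9 genes do not rest on the same values: for Birc5 the deficient-diet adjacent arrays were high, whereas for Cenpe and Cenpf the normal-diet neoplasia arrays were. The 2 pairs per diet limit what these values can show.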

How the results depend on the processing

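No alternative called any of the 42 genes, or any of all genes, at an adjusted p under 0.05. At an unadjusted p under 0.05 the paired tissue fit found 485 genes in the mean over diets, 806 on the normal diet, 425 on the deficient diet and 760 for the difference between diets; with no replicate block these were 382, 645, 344 and 548. They moved more with the animals: 1664, 1767, 828 and 1325 without normal-diet replicate 1, 1383, 2343, 828 and 2332 without normal-diet replicate 2, 321, 572, 239 and 315 without deficient-diet replicate 1, and 433, 572, 578 and 710 without deficient-diet replicate 2. The block by title number gave the same medians for the diet comparisons, -0.15 for mitotic genes in neoplasia and 0.09 in adjacent tissue, and changed no call; same-numbered animals of the 2 diets are different animals. After quantile and cyclic loess normalization, in that order, medians of S-phase genes were 0.097 and 0.077 on the normal diet (0.068 as reported), -0.032 and -0.028 on the deficient diet (-0.005), -0.067 and -0.048 for the difference between diets (-0.041) and -0.13 and -0.12 between diets in neoplasia (-0.060), where 1 and 1 of 16 lay above 0 in place of 6; in adjacent tissue 5 lay above 0 after cyclic loess in place of 8. Medians of mitotic genes were -0.0083 and 0.0046 on the deficient diet (0.017) and -0.22 and -0.22 between diets in neoplasia (-0.15). With only genes whose mean lies in the upper 50 percent, S-phase medians were 0.092 in the mean over diets, 0.16 on the normal diet, 0.0030 on the deficient diet, -0.058 for the difference between diets, -0.11 between diets in neoplasia and 0.11 in adjacent tissue. Mitotic medians were 0.41 on the normal diet, 0.048 on the deficient diet, -0.53 for the difference between diets and -0.36 between diets in neoplasia. The medians of all genes kept by this filter were 0.041, -0.047, -0.078 and -0.12 in the same order. Fewer genes enter there by construction. With the mean of all probe sets the deficient-diet mitotic median was -0.0024. Leaving out each animal in turn gave S-phase medians of -0.0091 to 0.037 in the mean over diets, 0.041 to 0.068 on the normal diet, -0.0067 to 0.0031 on the deficient diet, -0.083 to -0.042 for the difference between diets, -0.11 to -0.017 between diets in neoplasia and -0.048 to 0.077 in adjacent tissue. Mitotic medians were 0.077 to 0.15 in the mean over diets (19 to 24 above 0), -0.0033 to 0.18 between diets in adjacent tissue, -0.049 to 0.017 on the deficient diet, -0.36 to -0.13 for the difference between diets, 0.12 to 0.32 on the normal diet and -0.18 to -0.13 between diets in neoplasia. S-phase genes above 0 numbered 3 to 7 between diets in neoplasia and 5 to 10 in adjacent tissue, and mitotic genes above 0 numbered 4 to 9 for the difference between diets and 5 to 6 between diets in neoplasia. The mean effects of Ccne1 (0.031, with a range of -0.14 to 0.031 over the animals left out) and Cdc45 (0.066, range -0.11 to 0.066) without deficient-diet replicate 1 and of Pcna (-0.081, range -0.081 to 0.21) without normal-diet replicate 1 had the opposite sign. The cause was not tested.

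Low signal limits these results: 26 of the 42 genes lay at or below the table median and 33 did not exceed the negative controls' median on every array. With 2 animals per diet, diet, animal and array quality cannot be separated.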
